A study of Canis lupus familiaris with 16 samples.

Results

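NEAT1 is a long noncoding RNA that stays in the nucleus and builds the paraspeckle, a body in which it is bound by RNA-binding proteins such as NONO and SFPQ. Cells make more NEAT1 under stress, hypoxia or mitogen signalling. The deposited table of dog genes held 2 entries of this locus, NEAT1_1 (ENSCAFG00000029798) and NEAT1_2 (ENSCAFG00000031288), out of 24580 genes. Both names are also used elsewhere for the short and the long NEAT1 isoform, but here each is a separate Ensembl entry of small annotated size (below), and their values are not isoform abundances. The 2 entries were taken from the study's list of overexpressed genes, so they had been selected on the difference between meningioma and normal meninges in these same libraries. Levels in these groups are therefore given as a description, without a test. Correlations over the tumors were tested. The selection did not use such correlations, although a test between groups depends on the spread within each group.

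RNAseq was performed on 13 canine meningiomas, tumors of the coverings of the brain and spinal cord, and on normal meninges of 3 healthy research beagles. The tumors were surgical biopsies from dogs of several breeds and were labelled grade I (transitional or meningothelial) or grade II (atypical). The study had left out further cases for low mapping, as outliers in principal components or as metastatic melanoma. The tumors kept were therefore selected partly on their expression. The labels describe all tumors as formalin-fixed and paraffin-embedded, whereas the methods of the study state that a pair of the grade II tumors had been flash-frozen. All controls were frozen, with Trizol-extracted RNA, while RNA of the fixed tumors was extracted with the FormaPure kit. Tumor against control and fixed against frozen can therefore not be told apart in most libraries, and neither can fewer cells of a type and less RNA per cell.

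The table numbers its libraries 0 to 12 in the meningiomas and 0 to 2 in the controls. The labels do not tie these numbers to single tumors. The study reports read totals for each tumor and FPKM of some genes for most of them. These values might allow a match of libraries to tumors, but none was made here. Grade and fixation of a library were therefore not used, and their part in the variation among tumors was not tested. Totals on genes were 2138741 to 7358925 fragments in the meningiomas and 2269204 to 7054614 in the controls. Meningioma libraries 2 and 12 stood apart on the third principal component of log2(FPKM + 1), which held 11.6% of the variance. Their scores were -70.3 and -67.5, against -14.9 to 34.9 in the other libraries. The cause was not tested, nor was whether libraries 2 and 12 are the flash-frozen pair of tumors. Results that rest on libraries 2 and 12 are given with and without them. PDPN, a marker of arachnoid cells, was present in all libraries, with 114 to 1150 CPM (counts of fragments scaled to a common library size with TMM normalization) in the meningiomas and 42.8 to 88.2 CPM in the controls.

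Fragments on NEAT1_1 numbered 67 in the lowest meningioma library, 286 in the median library and 1216 in the highest. In controls 0, 1 and 2 they numbered 268, 40 and 112. On NEAT1_2 there were 77, 257 and 1454 fragments in the lowest, median and highest meningioma library, and 187, 15 and 118 in controls 0, 1 and 2. The smallest of these values, 15 fragments in control 1, has a 95% Poisson interval of 8.4 to 24.7 fragments. Such intervals cover counting error only.

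After normalization for library size, NEAT1_1 ran from 9.96 CPM in meningioma library 12 to 186 CPM in library 0, with a median of 79.9 CPM. The controls had 37.1, 16.03 and 23.4 CPM. Of the 13 meningioma libraries, 10 were above all controls and 1, library 12, was below all of them. Meningiomas averaged 83.4 ± 49.9 CPM (SD, n = 13), while controls averaged 25.5 ± 10.7 CPM (SD, n = 3). The fitted log2 fold change was 1.70, which is 3.25-fold on the linear scale. Its standard error of 0.645 was derived from the quasi-likelihood F statistic, as the fold change over the square root of F.

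NEAT1_2 ran from 11.4 CPM in library 12 to 222 CPM in library 0, with a median of 65.6 CPM. The controls had 25.9, 6.01 and 24.6 CPM. Here 12 of the 13 meningioma libraries were above all controls, and library 12 lay within their range. The mean was 84.3 ± 53.7 CPM (SD, n = 13) against 18.8 ± 11.1 CPM (SD, n = 3). The log2 fold change was 2.14, or 4.42-fold, with a standard error of 0.668 derived in the same way. Without control 1, which had the lowest value, it was 1.74, and without library 12 it was 2.24.

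**Figure D1:**
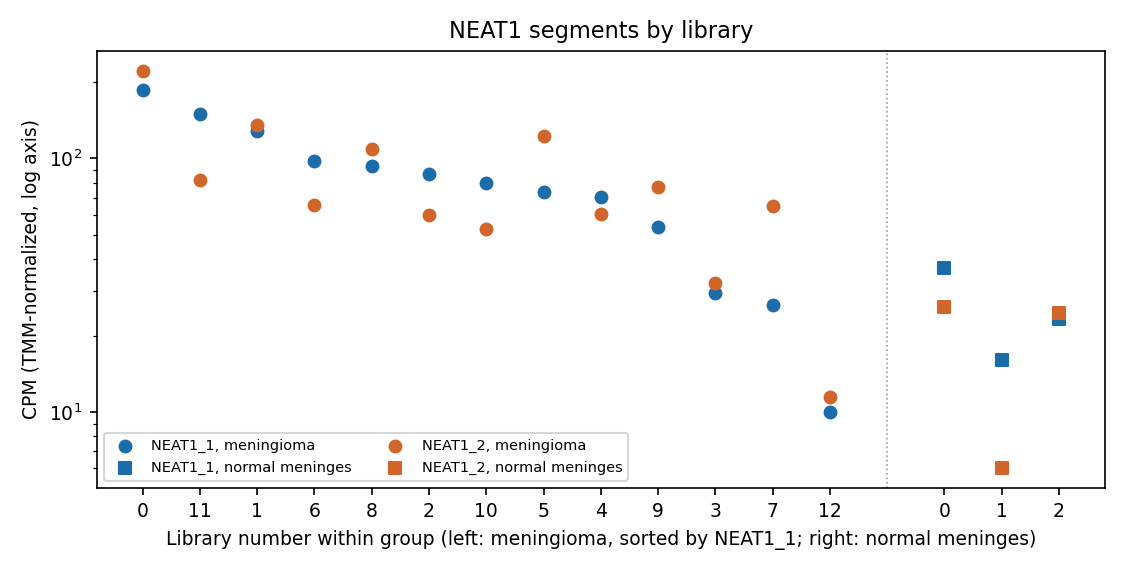
Level of both NEAT1 segments in each library, in TMM-normalized CPM on a log axis. Circles are the 13 meningiomas, sorted by NEAT1_1, and squares the 3 controls. Library 0 is highest for both segments (186 and 222 CPM), and library 12 is the lowest meningioma (9.96 and 11.4 CPM).

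At least 10 of the 13 meningioma libraries were above all controls for both segments, which was so for 13.0% of the 14345 genes tested. As the segments had been chosen by this contrast, nothing was read from this count, and no test of it is given.

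Other genes of the pathway could be followed only where the study pairs a symbol with an identifier. Of the genes listed, none of the 15 paraspeckle proteins, 8 neighbours of the NEAT1 locus or 8 regulators of NEAT1 was paired with one, and they were not analysed here. Nor were the listed immune (3) and glial or neuronal (3) markers. All 10 endothelial and all 5 mural (vessel wall) markers had an identifier, and all of them were called lower in the meningiomas by edgeR's quasi-likelihood test (adjusted p under 0.05), as were 3.55% of the 14345 genes tested. Their summed levels were 109 to 495 CPM against 1280 to 2180 CPM in the controls for the endothelial list and 82.1 to 252 CPM against 657 to 1630 CPM for the mural list. The median log2 fold change was -2.86 for the endothelial and -3.26 for the mural list, against 0.06 over all tested genes. No marker of either list was at 0 in any library. These markers had been picked by the study from the same libraries, and their part in the level of NEAT1 between the groups was not tested.

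NEAT1 FPKM values were very large for the number of fragments behind them. Meningiomas averaged 16405 ± 9715 FPKM of NEAT1_1 (SD, n = 13), while controls averaged 5043 ± 2148 FPKM (SD, n = 3). NEAT1_2 averaged 6335 ± 3999 FPKM in the tumors (SD, n = 13) against 1428 ± 850.0 FPKM (SD, n = 3). By FPKM, NEAT1_1 was the first of all 24580 genes in 7 of the 13 meningioma libraries and among the first 10 in 12. By fragments, its rank in the meningiomas was between 1134 and 9417. NEAT1_2 was between rank 3 and rank 104 by FPKM and between rank 927 and rank 9068 by fragments in the meningiomas.

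**Figure D2:**
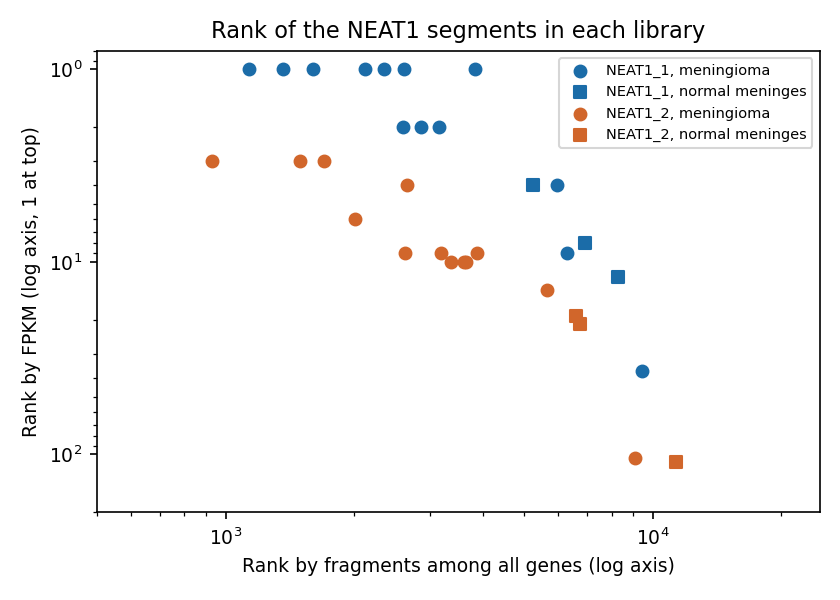
Rank of each segment among all genes by fragments (x axis) and by FPKM (y axis, rank 1 at the top) in each library, both on log axes. Circles are meningiomas and squares controls. NEAT1_1 is at rank 1 by FPKM in 7 meningioma libraries, while its best rank by fragments is 1134.

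FPKM divides the scaled fragments by an effective length, the number of positions at which a fragment can start, and this becomes very small for an entry about as short as a sequenced fragment. One scaled fragment was worth 45.9 FPKM for NEAT1_1 and 17.5 FPKM for NEAT1_2, against a median of 0.149 FPKM over 20558 genes with fragments. These values are 308 and 118 times that median. Only 101 genes (0.491%) had more FPKM per fragment than NEAT1_1. Reads that matched annotated short noncoding RNAs had been removed by the study before mapping, and whether this took reads from the NEAT1 entries was not tested. FPKM levels of the segments were therefore not compared with those of other genes.

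In a comparison chosen after the values were seen, the 716 tested genes in the top 5% of FPKM per fragment had a median log2 fold change of 0.06, the same as all tested genes. In 23 of the 716 (3.21%) it was at least that of NEAT1_1 and in 11 (1.54%) at least that of NEAT1_2, against 2.61% and 1.42% of all tested genes. Only 8 tested entries besides the segments had as much FPKM per fragment as NEAT1_2, and their median was 0.05. In 1 of the 8 (12.5%) the fold was at least that of either segment. These entries had far fewer fragments than the segments, with a median of 20.5 in the top 5% and 14.8 in the 8, and whether short length has a part in the difference between the groups was not tested.

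The order of the segments depended on the unit. By fragments they were about equal, with a median ratio of NEAT1_2 to NEAT1_1 of 1.09 in the meningiomas. NEAT1_2 had more fragments in 8 of the 13 meningioma libraries and NEAT1_1 in 5. By FPKM, NEAT1_1 was higher in all 13 meningiomas and all 3 controls, by 1.07-fold to 4.74-fold in the meningiomas (median 2.39) and by 2.48-fold to 6.97-fold in the controls (median 3.75). FPKM weights a fragment of NEAT1_1 2.62 times as much as one of NEAT1_2, a constant in every library. Since this factor rests on 2 very small effective lengths, no order of level per length was read from it.

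As both segments were read in the same library, their ratio needs no library size. It was 1.13 ± 0.515 (SD, n = 13) in the meningiomas, from 0.552 in library 11 to 2.45 in library 7. In controls 0, 1 and 2 it was 0.698, 0.375 and 1.05, within or below the range of the meningiomas, and the groups overlapped. The ratio is made of the values that chose the segments, so the groups were not tested for a difference.

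The shares in single libraries were as follows. NEAT1_2 held 71.0% of the fragments of both segments in library 7 (95% Clopper-Pearson interval 65.5% to 76.1%, which covers counting error only). In library 11 it held 35.6% (32.8% to 38.5%). Of the 13 meningioma libraries, 5 had an interval wholly above 50% and 4 wholly below it. The Pearson chi-square of the shares was 24.7 times its degrees of freedom in the meningiomas and 6.33 times in the controls. These values set the spread between separate dogs against counting error alone, and differences between library preparations are part of that spread. In control 1 the share was 27.3% with an interval of 16.1% to 41.0%, on 40 and 15 fragments.

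**Figure D3:**
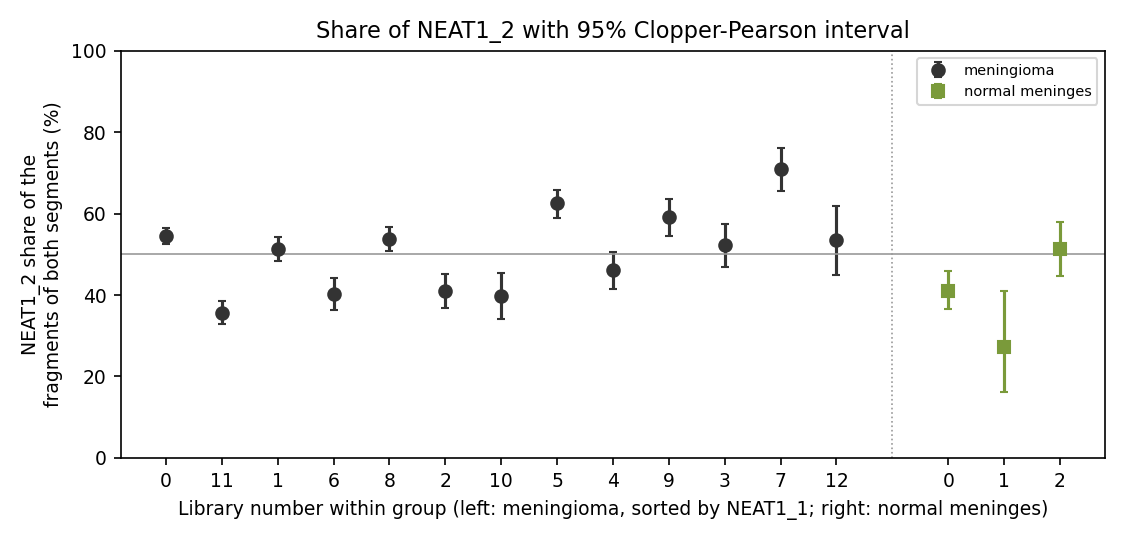
Share of NEAT1_2 in the fragments of both segments in each library, in percent, with 95% Clopper-Pearson intervals. Black circles are meningiomas, sorted by the level of NEAT1_1, and green squares controls. Library 7 (71.0%) and library 11 (35.6%) lie on opposite sides of 50% with intervals that do not meet.

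Among the meningiomas that the study kept, both segments varied widely. The highest library exceeded the lowest 18.6-fold for NEAT1_1 and 19.4-fold for NEAT1_2. The SD of log2 CPM was 1.14 and 1.03, against a median of 0.582 over all tested genes, and 86.5% and 82.5% of the tested genes varied less. Library 12, lowest for both, was among the deepest, with 7287730 fragments. For depth (log2 total fragments) the correlations were small (NEAT1_1, Pearson r = -0.131, permutation p = 0.661, n = 13; NEAT1_2, r = -0.07, permutation p = 0.824, n = 13).

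Libraries with more of one segment had more of the other. The correlation of log2 CPM over the 13 meningioma libraries was r = 0.851 (two-sided permutation test, p = 3.8e-04, adjusted p = 0.0095 over 25 relations). Spearman's rho was 0.698 (permutation p = 0.00973, adjusted p = 0.0608), which did not pass 0.05 after adjustment. Without libraries 7 and 12, the farthest from the median of NEAT1_1, r was 0.76. Without libraries 2 and 12 it was 0.712 (permutation test, adjusted p = 0.0668). The adjusted p of r was also above 0.05 without library 0 (r = 0.823, adjusted p = 0.0757 by permutation) and without library 12 (r = 0.689, adjusted p = 0.074 by permutation), and stayed under it without each of the other 11 libraries. With single libraries left out, r lay between 0.689 and 0.899. Of the other 14344 tested genes, 162 (1.13%) had a higher rho with NEAT1_1 than NEAT1_2 had, and 183 (1.28%) had a higher rho with NEAT1_2 than NEAT1_1 had.

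**Figure D4:**
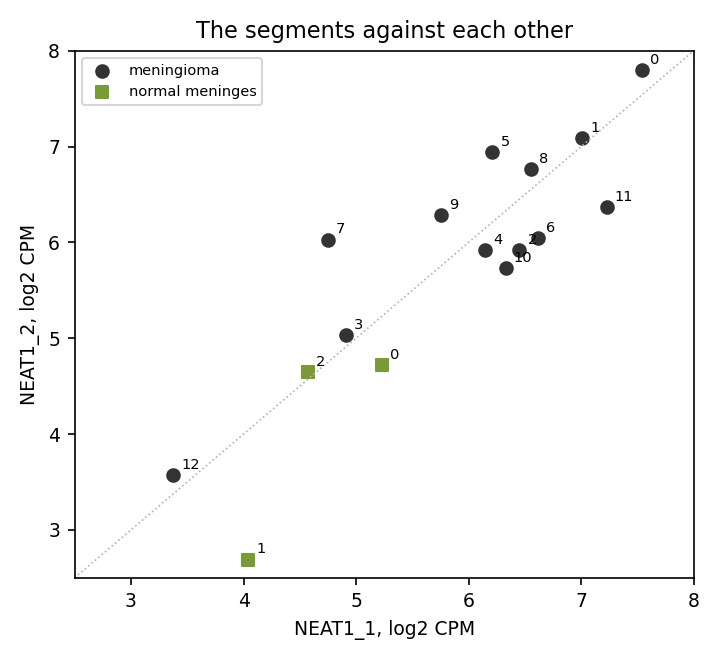
NEAT1_2 against NEAT1_1 in log2 CPM, with library numbers. Black circles are meningiomas, green squares controls, and the dotted line marks equal levels. The meningiomas run from library 12 at the lower left to library 0 at the upper right (r = 0.851), with libraries 7 and 11 farthest to either side of the line.

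Immediate-early genes are switched on within minutes by growth factors or stress, without new protein synthesis, and include the transcription factors FOS, FOSB, EGR1 and NR4A1. Of 8 listed genes with rapid induction, all had an identifier, and 2, KLF5 and MYC, were called higher in the meningiomas by edgeR's quasi-likelihood test, as were 1.31% of the genes tested. Over all genes edgeR called 188 higher and 509 lower, and DESeq2 662 and 702. The study had chosen the 8 listed genes from these libraries as higher in the meningiomas. Their median log2 fold change was 3.15, against 0.06 over all tested genes. Library 0, highest for both NEAT1 segments, was also highest of the meningiomas for FOS (2110 CPM, median 270), EGR1 (1620 CPM, median 135), NR4A1 (637 CPM, median 15.2), GEM (242 CPM, median 55.4) and MYC (290 CPM, median 198). Library 12, lowest for NEAT1, had 36.1 CPM of FOS, which is within the range of 23.1 to 37.4 CPM in the controls. It was the lowest meningioma for EGR1 (27.5 CPM), FOSB (0.892 CPM), ZFP36 (12.2 CPM) and KLF5 (185 CPM), but not for NR4A1 (5.8 CPM, lowest 4.1), GEM (33.3 CPM, lowest 12.2) or MYC (198 CPM, the median). Library 0 was likewise at the median for KLF5 (355 CPM), below the highest for FOSB (266 CPM) and next to it for ZFP36 (342 CPM). FOSB reached 728 CPM (median 24.5) and ZFP36 345 CPM (median 62.6) in the meningiomas, against at most 3.18 and 16.6 CPM in the controls. KLF5, a zinc finger factor, had 185 to 679 CPM in the meningiomas and 29.8 to 47.9 CPM in the controls, without overlap.

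NEAT1_1 was correlated with 4 of these genes across the tumors. They were ZFP36, which destabilizes mRNAs with AU-rich elements (r = 0.753, permutation p = 0.00237, n = 13), EGR1 (r = 0.723, permutation p = 0.0042), FOS (r = 0.703, permutation p = 0.00464) and FOSB (r = 0.697, permutation p = 0.00524). Each had an adjusted p of 0.0262 over the 25 relations. By Spearman's rho none of the 4 passed after adjustment, with rho from 0.632 to 0.736 and adjusted p of 0.0608 to 0.0841 by permutation. Without libraries 7 and 12, r of these 4 was 0.588 to 0.727. Without libraries 2 and 12, none of the 4 passed, with r of 0.711 for FOS and 0.744 for EGR1 (permutation test, adjusted p = 0.0668 for both) and 0.65 for FOSB and 0.658 for ZFP36 (adjusted p = 0.0803 for both).

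For GEM, a small GTP-binding protein, r with NEAT1_1 was 0.649 (permutation p = 0.0146, adjusted p = 0.0607) and for NR4A1 it was 0.603 (permutation p = 0.028, adjusted p = 0.0875). MYC (r = 0.037) and KLF5 (r = 0.195) had the smallest values of the list. Their rho was 0.346 and 0.011, and without libraries 7 and 12 their r was 0.367 and -0.093, so the r of MYC depended on those libraries. All these relations share the values of NEAT1_1 and are not independent of each other. The part of fixation or grade in them was not tested.

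NEAT1_2 passed with 0 of the 8 genes, except that ZFP36 passed without library 8 (r = 0.738, permutation test, adjusted p = 0.0251). Its largest r was 0.62, with ZFP36 (permutation p = 0.021, adjusted p = 0.075, n = 13), followed by GEM (r = 0.566) and FOS (r = 0.552). Without libraries 0 and 12, the farthest from its median, r fell to 0.164 for ZFP36 and 0.302 for FOS and was 0.579 for GEM, so the relations with ZFP36 and FOS rest on those libraries. Whether NEAT1_1 and NEAT1_2 differ in their relation with these genes was not tested.

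The number of relations called changed when single libraries were left out, which also leaves fewer libraries to test. Of the 24 relations with partners, 4 had an adjusted p under 0.05 by permutation. The number was 0 without library 0 and without library 11, and 2 (EGR1 and ZFP36) without library 1. Without library 12 all 4 lost their call, and the 1 relation that passed was that of NEAT1_1 with GEM (r = 0.785, permutation test, adjusted p = 0.0487). Without libraries 2 and 12 it was again GEM alone (r = 0.919, permutation test, adjusted p = 0.0045). Without library 8 there were 6, the 4 together with NR4A1 and the relation of NEAT1_2 with ZFP36. For the 4 called genes r lay between 0.62 and 0.85 with each library left out. FOSB also lost its call without library 6 (r = 0.689).

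**Figure D5:**
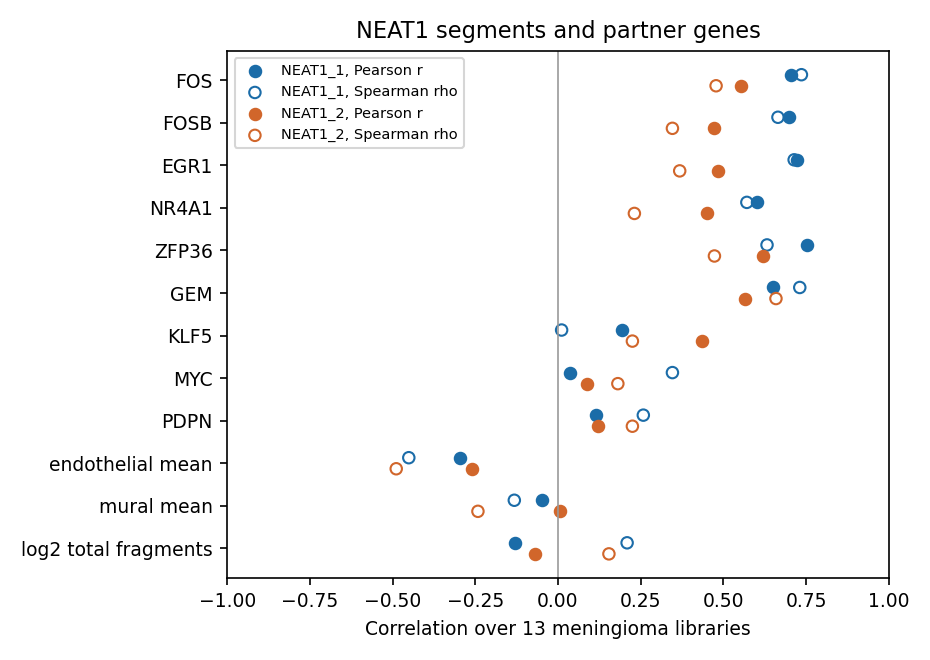
Correlation of each NEAT1 segment with the listed genes, the mean log2 CPM of the endothelial and mural markers and the log2 total of fragments, over the 13 meningioma libraries. Filled points are Pearson r and open points Spearman rho. NEAT1_1 has r of 0.697 to 0.753 with FOS, FOSB, EGR1 and ZFP36, and 0.037 with MYC (rho 0.346).

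The endothelial markers had negative correlations with both segments, none of which passed. For their mean, r was -0.295 with NEAT1_1 and -0.26 with NEAT1_2 (permutation p = 0.328 and 0.396, n = 13), and rho was -0.451 and -0.489 (permutation p = 0.124 and 0.0933). Without the 2 libraries farthest from the median of each segment, r was -0.404 and -0.536. By rho and by this r, the endothelial mean was at least as far from 0 with NEAT1_2 as FOS or ZFP36 were. For the mural mean r was -0.048 and 0.007, and for PDPN 0.114 and 0.122. Failing the threshold at 13 libraries does not show that these relations are absent.

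Of the 122 other genes with a symbol in the study's lists, those most like the segments were named by the mean of their rho with NEAT1_1 and NEAT1_2 over the 13 meningioma libraries, as a description. The 5 highest were GEM (0.695), BMPR1B, a type I receptor of bone morphogenetic proteins (0.659), FOS (0.607), ZFP36 (0.552) and EGR1 (0.541). BMPR1B ran from 0.892 to 239 CPM in the meningiomas and from 5.01 to 11.6 CPM in the controls. The 5 lowest were LPAR3, a receptor of lysophosphatidic acid (-0.684), the secreted glycoprotein OLFML3 (-0.607), MMRN2, an endothelial matrix protein (-0.571), ACTC, described in the list as a smooth muscle actin (-0.541), and MYOC, a secreted glycoprotein (-0.522). Over all tested genes, 1% had a mean rho of at most -0.668 and 1% of at least 0.67, so of the named genes GEM and LPAR3 lay beyond these limits.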

How the data were processed

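Per the submitters' processing notes and the methods of the study, reads were trimmed with cutadapt 1.8, mapped to canFam3 with TopHat2 2.0.13 and quantified with Cuffdiff 2.2.1. Before mapping, the authors removed reads matching rRNA and annotated noncoding RNAs below a length limit, a rule that bears on entries as short as those of NEAT1. Whether these entries were in the removed set was not tested. The deposited table holds estimated counts of fragments, the same as a signal scaled by 1 factor per library by the authors, and FPKM computed by the authors from it.

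Estimated counts (not whole in 0.347% of values) were rounded and fitted with edgeR 4.0.16 in R 4.3.3, with TMM, keeping genes that reached 10 fragments in 3 or more libraries, and Benjamini-Hochberg adjustment over all of them. Log2 CPM used a prior count of 2. Correlations used 100000 permutations (numpy 2.4.6, scipy 1.17.1). Alternatives were DESeq2 1.42.0, limma 3.58.1 on log2(FPKM + 1) and log2(FPKM + 0.1), other size factors and filters, and libraries left out. The fit was tested on simulated data. Separate samples were replicates of their group. The 2 entries, the gene lists and the tests were chosen with earlier results of these data known. Genes were named by their mean rho (5 at each end among listed genes), together with all of the immediate-early list. No sequence or coordinate of the NEAT1 entries was used here.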

Additional observations from a re-analysis of the deposited data

How the results depend on the processing

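The log2 fold change of NEAT1_1 lay between 1.46 and 2.08 with each library left out and between 1.46 and 1.81 under the 9 other alternatives, and that of NEAT1_2 between 1.74 and 2.44 and between 2.11 and 2.28. In all of these the meningiomas were higher, which is the direction for which the segments had been chosen. The number of genes called higher, 188, was 662 with DESeq2, 354 without meningioma libraries 2 and 12, and 12 to 316 with each library left out (37, 43 and 12 without controls 0, 1 and 2, and 316 without meningioma library 6). The number called lower, 509, was 157 to 615 with each left out (208, 307 and 157 without controls 0, 1 and 2). The correlation of the segments was 0.712 without libraries 2 and 12 and 0.689 to 0.899 with each library left out. Relations with partners under 0.05 numbered 1 without libraries 2 and 12 and 0 to 6 with each left out, against 4. The cause of these shifts was not tested. The median ratio of the segments was 1.07 to 1.12 in the meningiomas and 0.536 to 0.876 in the controls with each library left out, and 1.03 and 0.762 from summed fragments. No paired analysis was possible because the groups are different dogs. The 3 controls, one with 15 fragments on NEAT1_2, limit the precision of every group value.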
